A study of Mus musculus with 46 samples.

Results

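Which regional differences remain in the brain of R6/2 mice was asked by setting the striatum of 7 vehicle-dosed R6/2 mice against the cerebral cortex of the same 7 animals. These 14 libraries were all the vehicle R6/2 libraries among the 46 of the series, and 16977 of the 43346 listed genes passed the filter on low counts and were tested. The 7 mice (4 females and 3 males) carried the Tg(HDexon1)62Gpb transgene on a C57BL6/J background, received vehicle by mouth 2 times a day from 4 weeks of age and were sampled at 12 weeks. They are set beside 8 treated R6/2 mice with the same transgene, given CHDI-00340246 at 30 mg/kg on the same schedule, and beside 8 WT mice given vehicle, each group with 4 females and with 1 striatal and 1 cortical library per animal. The treated and WT mice were also sampled at 12 weeks of age. CHDI-00340246 is an inhibitor of kynurenine 3-monooxygenase, an enzyme of tryptophan breakdown. The R6/2 transgene holds the first exon of human huntingtin with a long CAG repeat under the human promoter, so it is a fragment model, and the mouse Htt gene is still present in all groups. Htt itself averaged 230 ± 24.2 CPM in vehicle R6/2 striatum and 261 ± 27.1 CPM in vehicle R6/2 cortex (SD, n = 7 each), where CPM are counts per 1e+06 scaled between libraries by the trimmed mean of M values (TMM).

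The striatum is made up mostly of GABA-releasing projection neurons. Those of the direct pathway carry the dopamine receptor Drd1 with the peptides Tac1 and Pdyn, and those of the indirect pathway carry Drd2, Adora2a and Penk. The cortex holds glutamate-releasing pyramidal neurons in layers, specified by factors such as Tbr1, Neurod6 and Fezf2, together with interneurons that use peptides such as Vip and Cck. In Huntington's disease and its mouse models the projection neurons lose many of their characteristic transcripts. In bulk tissue, fewer cells of a type and less RNA per cell cannot be told apart.

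The labels fitted the tissues: the lowest Drd2 level among vehicle R6/2 striatal libraries was 60.5 CPM, against a highest cortical level of 2.97 CPM. Slc17a7, the vesicular glutamate transporter of cortical neurons, reached 57.3 CPM at most in striatum, against 799 CPM or more in cortex. Gm12695, the mouse gene at the transgene's insertion site, averaged 3.79 ± 0.379 CPM in vehicle R6/2 striatum and 3.27 ± 0.354 CPM in vehicle R6/2 cortex (n = 7 each), against 0.0855 and 0.04 CPM in WT striatum and cortex. Total counts, in units of 1e+06, ran from 30.4 to 36.0 per striatal library and from 31.9 to 37.8 per cortical library. Vehicle R6/2 striatal libraries carried the run tags L1 to L3 and cortical libraries L5 to L8, so tag and region cannot be told apart in them. The same holds for WT, with L1 to L4 in striatum and L7 and L8 in cortex. L4 held no vehicle R6/2 library, and L5 and L6 held no WT library. The part of the tags in differences between the genotypes was not tested.

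Some libraries stood apart by markers of another region. The cortical library of mouse 3 had 2.97 CPM of Drd2, 5.63 CPM of the homeobox factor Six3 and 3.44 CPM of the LIM-homeodomain factor Isl1. Summed over these striatal genes it was at 13.8 times the median of the 7 cortical libraries. The striatal library of mouse 1 had 57.3 CPM of Slc17a7, 3.4 CPM of Neurod2 and 5.77 CPM of the zinc transporter Slc30a3, and with Emx1 these cortical genes summed to 6.57 times the striatal median. The striatal library of mouse 3 also held 21.1 CPM of Tcf7l2, 33.6 CPM of Prkcd and 37.5 CPM of Zic1, genes of thalamus and septum, whose sum was 2.74 times the median. By the same measure, with a limit of 3 times, WT mice 3 and 6 and treated mice 3 and 7 had a library that stood apart. Some of the counts below are therefore also given without those animals, a choice made after the values were seen. The animals were chosen by the marker genes named in this paragraph. For those genes, such as Drd2, Isl1 and Slc17a7, a larger difference without those animals follows from the choice and is no separate evidence. Their part in the results with all animals was not tested beyond this.

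**Figure D1:**
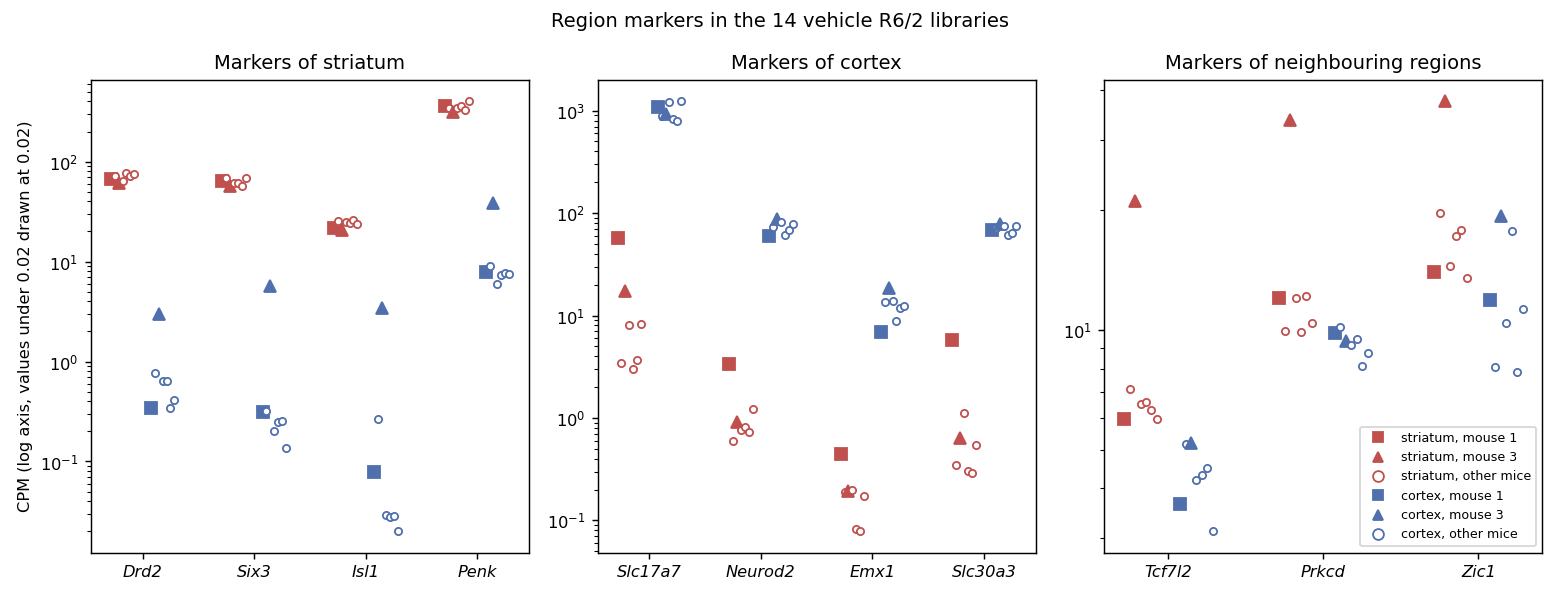
Level in CPM (log axis) of genes of striatum, of cortex and of neighbouring regions in the 14 vehicle R6/2 libraries, with striatal libraries in red, cortical libraries in blue, and mice 1 and 3 as filled squares and triangles. The cortical library of mouse 3 has 3.44 CPM of Isl1 and the striatal library of mouse 1 has 57.3 CPM of Slc17a7, each above the other libraries of its region.

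Striatum and cortex of vehicle R6/2 mice remained far apart. Of the 16977 genes, 5143 (30.3%) were higher in striatum and 4993 (29.4%) were higher in cortex, by edgeR's quasi-likelihood test with the animal as a block and a Benjamini-Hochberg adjusted p under 0.05, the rule for a called gene throughout. Over all tested genes, called or not, the median absolute log2 difference, striatum over cortex, was 0.232 with a median standard error (SE) of 0.0607. A difference of at least 2-fold, here called regional, was found for 761 genes higher in striatum (4.48%) and 897 higher in cortex (5.28%). Of these, 115 and 128 differed by at least 8-fold. The first principal component of the 14 libraries held 68.1% of the variance and separated the regions, and the second held 10.6%. Without mice 1 and 3, 9622 genes were called and 1760 were regional. Leaving out any 1 mouse left between 1645 and 1732 regional genes.

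Among the genes with the largest differences in favour of the striatum were Serpina9, Sh3rf2, Cd4, Drd2, Six3, Ido1, Isl1, Gpr6 and Lhx8. Drd2, the dopamine receptor of indirect pathway neurons (chromosome 9, 49340627 to 49408177, mm10), had 60.5, 71.5 and 77.6 CPM as lowest, median and highest value in the 7 striatal libraries, against 0.339, 0.636 and 2.97 CPM in cortex. That is 84.0-fold (log2 6.39 ± 0.39 SE, adjusted p = 8.32e-06), and 7.01 on the log2 scale without mice 1 and 3. Gpr6, a receptor of the same neurons, had 21.9, 28.2 and 33.3 CPM in striatum, against 0.311, 0.395 and 0.939 CPM in cortex (log2 5.78 ± 0.18 SE). The groups did not overlap for either gene, which largely follows from their rank among the largest differences. Isl1, which specifies direct pathway and cholinergic neurons, had 20.9, 24.2 and 26 CPM in striatum, against 0, 0.029 and 3.44 CPM in cortex, where the next highest library after mouse 3 had 0.263 CPM. Its log2 difference was 5.84 ± 0.8 SE with all mice and 8.44 without mice 1 and 3. Lhx8, a factor of forebrain cholinergic neurons, was at 5.76 on the log2 scale with all mice and 8.14 without mice 1 and 3. Ido1, which opens the kynurenine pathway, had 6.01, 8.14 and 9.91 CPM in striatum, against 0.0277, 0.082 and 0.407 CPM in cortex (log2 5.91 ± 0.35 SE, and 6.98 without mice 1 and 3). Cd4, best known as a T cell co-receptor, had 15.6, 25.2 and 26.8 CPM in striatum, against 0.0565, 0.158 and 0.626 CPM in cortex (log2 6.49 ± 0.24 SE). Fitted folds of genes this close to 0 in one region depend on the prior count of the model and are imprecise in size.

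In favour of the cortex the largest differences included those of Gm11549, Neurod6, Slc17a7, Igfn1, Slc30a3, Tbr1, Neurod2 and Rtn4rl2. Slc17a7 (chromosome 7, 45163949 to 45176142) had 2.99, 8.09 and 57.3 CPM in striatum, against 799, 935 and 1230 CPM in cortex (log2 -6.73 ± 0.61 SE, adjusted p = 9.33e-05). Without mice 1 and 3 its difference was -7.59. Neurod6, a basic helix-loop-helix factor of pyramidal neurons, had 0.165, 0.365 and 2.03 CPM in striatum, against 29.5, 77.8 and 83.8 CPM in cortex (log2 -6.93 ± 0.32 SE, and -7.7 without mice 1 and 3). Tbr1, a factor of deep-layer neurons, had 1.04, 1.61 and 4.29 CPM in striatum, against 118, 125 and 133 CPM in cortex. None of these genes had a striatal library at the level of any cortical one. That largely follows from their choice as the largest differences, and the share of all genes without overlap is not given here.

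The promoters of Drd2 and Isl1 on the striatal side, and of Neurod6 and Slc17a7 on the cortical side, are printed to show the start regions of genes at the far ends of the regional range. For each region they are the 2 largest differences among the ranked genes above that were also named whatever their values, with 1 start site in the RefSeq table (build GRCm38.p6). They run from 250 bases before to 50 bases after it, 5′ to 3′ on the gene's strand. The positions are chr9:49340153-49340452 (plus strand) for Drd2, chr13:116309639-116309938 (minus) for Isl1, chr6:55681214-55681513 (minus) for Neurod6 and chr7:45163671-45163970 (plus) for Slc17a7. The gene positions given above come from a separate annotation, whose starts can differ. The Drd2 window ends at 49340452, before the gene position given above begins at 49340627. Capitals mark 3 searched motifs on either strand: the E-box CAGATG (reverse CATCTG), the cyclic AMP response element half-site TGACG (reverse CGTCA) and the GC box GGGCGG (reverse CCGCCC), which may overlap copies of themselves.
Drd2: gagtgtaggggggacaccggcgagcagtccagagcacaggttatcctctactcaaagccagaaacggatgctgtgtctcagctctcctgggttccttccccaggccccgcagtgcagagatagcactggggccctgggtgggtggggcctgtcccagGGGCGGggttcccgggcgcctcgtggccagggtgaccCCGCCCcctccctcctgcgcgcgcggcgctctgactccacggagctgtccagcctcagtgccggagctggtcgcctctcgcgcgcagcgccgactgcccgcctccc
Isl1: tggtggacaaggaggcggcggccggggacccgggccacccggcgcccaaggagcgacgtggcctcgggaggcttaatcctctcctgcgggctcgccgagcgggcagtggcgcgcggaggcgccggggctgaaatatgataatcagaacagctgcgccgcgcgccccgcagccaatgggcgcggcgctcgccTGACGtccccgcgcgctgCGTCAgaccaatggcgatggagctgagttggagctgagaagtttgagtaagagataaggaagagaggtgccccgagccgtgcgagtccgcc
Neurod6: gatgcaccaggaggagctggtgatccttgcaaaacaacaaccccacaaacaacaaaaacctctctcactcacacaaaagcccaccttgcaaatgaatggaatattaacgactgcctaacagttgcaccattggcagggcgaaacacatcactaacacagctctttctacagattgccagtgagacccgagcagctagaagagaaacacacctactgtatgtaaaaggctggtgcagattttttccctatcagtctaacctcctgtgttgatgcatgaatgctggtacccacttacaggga
Slc17a7: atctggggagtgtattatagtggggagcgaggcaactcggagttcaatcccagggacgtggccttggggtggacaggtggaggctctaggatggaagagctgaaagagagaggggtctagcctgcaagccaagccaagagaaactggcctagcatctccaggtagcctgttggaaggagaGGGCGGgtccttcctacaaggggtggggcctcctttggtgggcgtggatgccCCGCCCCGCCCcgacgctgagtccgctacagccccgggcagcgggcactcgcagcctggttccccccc
The GC box occurred 2 times for Drd2 and 3 times for Slc17a7, and the half-site 2 times for Isl1. The Neurod6 window held none of the 3 and had the lowest share of G and C, 46.3%, against 70.3% for Drd2, 69% for Isl1 and 63.7% for Slc17a7. Of the 32851 promoters in the table, 35.7% hold the GC box, 20.8% the half-site and 17.2% the E-box.

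Next, the vehicle R6/2 differences were read against those of WT brain, where 5308 genes were higher in striatum (31.1%) and 5382 in cortex (31.6%), and the regional genes numbered 1032 (6.05%) and 1214 (7.12%) of 17051 tested. Of these WT regional genes, 2072 were also tested in vehicle R6/2. In the diseased brain 1303 of them (62.9%) differed by at least 2-fold in the same direction, 612 (29.5%) differed in the same direction by less, 149 (7.19%) were not called and 8 (0.386%) were called in the opposite direction. Under the fixed 2-fold rule, retention rose with the size of the WT difference. Of 1436 genes between 2-fold and 4-fold in WT, 713 (49.7%) stayed regional. The share was 306 of 349 (87.7%) between 4-fold and 8-fold, and 284 of 287 (99%) at 8-fold or more. That rule itself favours larger differences, since genes just above it in WT fall below it with a small change. Called in the same direction at any size were 90.2%, 96% and 99.3% of the 3 classes. A further 174 WT regional genes did not pass the count filter in vehicle R6/2. The 1303 shared genes were 78.6% of the vehicle R6/2 regional genes and 58% of those of WT. Over the 16654 genes tested in both, the log2 differences had a Pearson correlation of 0.911, given as a description across genes, which are not independent replicates. Without the animals whose libraries stood apart, 1397 of 2164 WT regional genes (64.6%) stayed regional and 14 were called in the opposite direction.

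**Figure D2:**
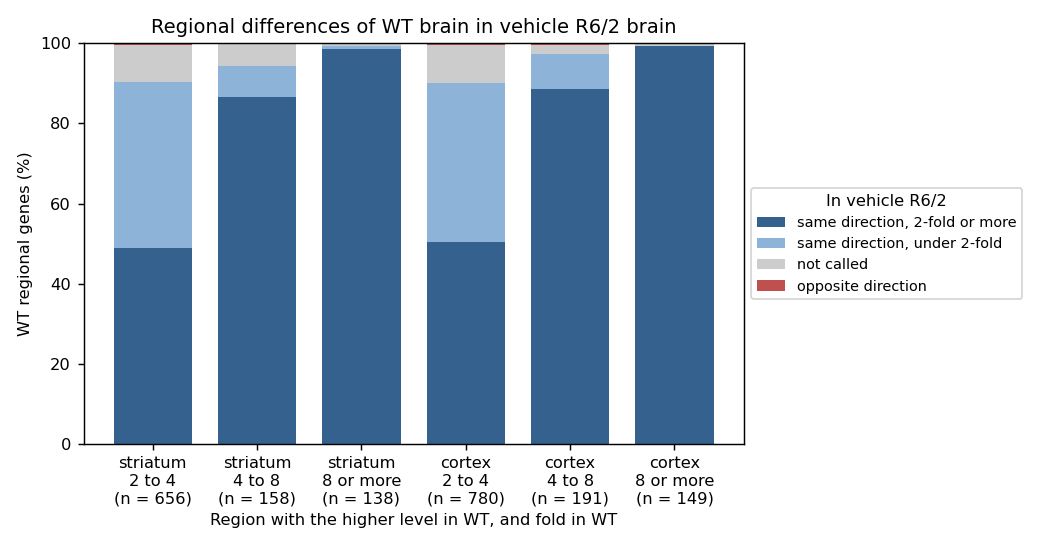
Share of WT regional genes by what they did in vehicle R6/2 (vertical axis, percent), split by the region with the higher WT level and by the WT fold. At 8-fold or more in WT, 98.6% of striatal and 99.3% of cortical genes stayed at 2-fold or more in vehicle R6/2, against 48.8% and 50.4% between 2-fold and 4-fold. The fixed 2-fold rule itself favours genes with a larger WT difference.

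Most WT regional genes had a smaller difference in vehicle R6/2, 772 of 952 on the striatal and 873 of 1120 on the cortical side. The median log2 difference of WT striatal genes was 1.18 in vehicle R6/2, against 1.48 in WT, and that of WT cortical genes was -1.27 in vehicle R6/2, against -1.55 in WT. Genes chosen for being large in WT tend to be smaller elsewhere, so the genes were also chosen on the mean of both genotypes. Of 1009 striatal genes chosen that way, 246 (24.4%) had a significantly smaller and 36 (3.57%) a significantly larger difference in vehicle R6/2 by the tissue-by-genotype interaction. Of 1147 cortical genes 251 (21.9%) were smaller and 98 (8.54%) larger. Over all 17824 genes of the interaction fit, 3065 were called, with the regional difference moved toward striatum in R6/2 for 1323 (7.42%) and toward cortex for 1742 (9.77%), and 2320 were called without the animals that stood apart. The median interaction over all genes was -0.0206 on the log2 scale.

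**Figure D3:**
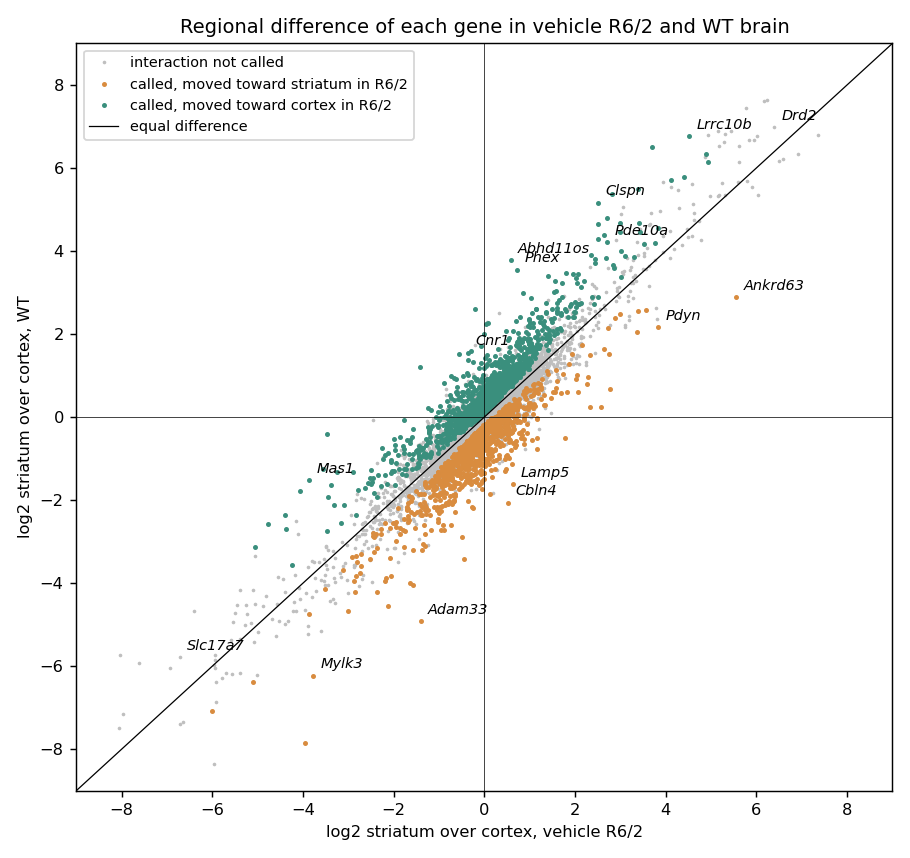
Log2 regional difference, striatum over cortex, of each gene in vehicle R6/2 (horizontal axis) and in WT (vertical axis), coloured by whether the difference between genotypes was called and its direction. Drd2 is at 6.39 in vehicle R6/2 and 6.98 in WT, and Cnr1 is at -0.36 in vehicle R6/2 and 1.55 in WT.

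Some striatal differences of WT brain were lost or strongly reduced. Cnr1, the CB1 cannabinoid receptor, had 92.7, 107 and 122 CPM in vehicle R6/2 striatum, against 113, 140 and 166 CPM in vehicle R6/2 cortex, and was lower in striatum in 7 of 7 mice (log2 -0.36 ± 0.071 SE, adjusted p = 0.00145). In WT it averaged 450 ± 79.7 CPM in striatum and 150 ± 18.4 CPM in cortex (n = 8 each), a log2 difference of 1.55 ± 0.073 SE, and the interaction was -1.93 ± 0.11 SE (adjusted p = 3.75e-09). The cortical mean of vehicle R6/2 was 139 CPM, beside 150 CPM in WT. Phex, an endopeptidase gene, averaged 1.15 CPM in striatum and 0.705 CPM in cortex of vehicle R6/2, against 8.05 and 0.672 CPM in WT, and its log2 difference was 0.73 in vehicle R6/2 and 3.55 in WT. Clspn, an adaptor of the DNA replication checkpoint, kept a 5.69-fold excess in vehicle R6/2 striatum, with a log2 difference of 2.51 beside 5.17 in WT. Lrrc10b averaged 61 ± 5.78 CPM in vehicle R6/2 striatum and 2.71 ± 1.11 CPM in vehicle R6/2 cortex, a log2 difference of 4.52 beside 6.77 in WT. Abhd11os, which overlaps Abhd11 on the opposite strand so that, with no strand use stated for the counting, their shared reads cannot be told apart, was at 0.59 in vehicle R6/2 (adjusted p = 0.0535) and 3.77 in WT. Gm9754, which overlaps Fbxw8 in the same way, was at 0.08 in vehicle R6/2 (adjusted p = 0.669) and 2.26 in WT.

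Of the 16654 genes tested in both genotypes, 175 were called in opposite directions at any size. The 8 of these that were regional in WT included Lhx9, Ace and Cnr1, higher in cortex in vehicle R6/2 and in striatum in WT. Mei1, Phf21b, Lamp5 and Cbln4 went the other way round. These genes are named because of their values. Lamp5, a membrane protein of upper-layer cortical neurons, had 71.2, 80.3 and 89.6 CPM in vehicle R6/2 striatum, against 37.1, 53.1 and 60.6 CPM in vehicle R6/2 cortex, with no overlap (log2 0.64 ± 0.079 SE). In WT it averaged 95 CPM in striatum and 288 CPM in cortex, a log2 difference of -1.63. Cbln4, a secreted synaptic organiser, averaged 5.15 CPM in striatum and 3.56 CPM in cortex of vehicle R6/2, against 4.99 and 20.9 CPM in WT. Its log2 difference was 0.51 in vehicle R6/2, -0.02 in treated R6/2 and -2.06 in WT, and within run tag L5 it was -0.02. Ace, the angiotensin-converting enzyme, was at -0.29 in vehicle R6/2 and 1.59 in WT, and its vehicle R6/2 call was lost without mice 1 and 3 (-0.23, adjusted p = 0.0983). Lhx9 ranged from 0.0287 to 3.5 CPM in vehicle R6/2 striatum, and its difference was -1.41 with all mice and -2.41 without mice 1 and 3.

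On the cortical side, Adam33, a metalloprotease gene, averaged 0.366 CPM in striatum and 1.01 CPM in cortex of vehicle R6/2, against 0.467 and 14.2 CPM in WT, and its log2 difference was -1.41 in vehicle R6/2 and -4.92 in WT. Myl4, a myosin light chain gene, and Mylk3, a myosin kinase gene, were at -2.12 and -3.78 in vehicle R6/2, against -4.56 and -6.23 in WT. BC030499 was at -1.64 in vehicle R6/2 and -3.99 in WT. Gm13306, in a part of chromosome 4 with near-identical gene copies between which estimated counts can be split, was at -0.5 in vehicle R6/2 and -2.9 in WT, and at 0.36 within run tag L5. Alox12b, a lipoxygenase gene, was at 0.0887 CPM in striatum and 0.286 CPM in cortex of vehicle R6/2, too low to be tested there, against 0.333 and 6.65 CPM in WT.

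Other differences were wider in the diseased brain. Pdyn, which encodes prodynorphin, had 62, 79 and 106 CPM in vehicle R6/2 striatum, against 3.94, 5.01 and 8.61 CPM in vehicle R6/2 cortex, and averaged 118 ± 13.9 CPM in striatum and 25.6 ± 1.97 CPM in cortex of WT. Its log2 difference was 3.84 ± 0.13 SE in vehicle R6/2 and 2.17 ± 0.08 SE in WT (interaction 1.64 ± 0.16 SE, adjusted p = 1.38e-06). The regions did not overlap in vehicle R6/2. Ankrd63 had means of 120 and 4.7 CPM in vehicle R6/2 striatum and cortex, against 159 and 21.1 CPM in WT (log2 5.55 and 2.89), and mouse 3 held the highest vehicle R6/2 cortical value, 25.6 CPM. Without mice 1 and 3 its vehicle R6/2 difference was 6.5. Mas1, a peptide receptor, and Cplx3, a complexin of vesicle release, became more cortical: Mas1 was at -3.87 in vehicle R6/2 and -1.53 in WT, and Cplx3 at -4.77 and -2.58. Mas1 averaged 0.496 ± 0.0982 CPM in striatum and 7.31 ± 0.924 CPM in cortex of vehicle R6/2, against 5.27 ± 1.39 and 14.7 ± 2.55 CPM in WT. Among all regional genes of vehicle R6/2, 355 were not among the WT regional genes, 168 on the striatal and 187 on the cortical side. In WT 226 of them were called in the same direction, and for 123 the interaction was called.

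**Figure D4:**
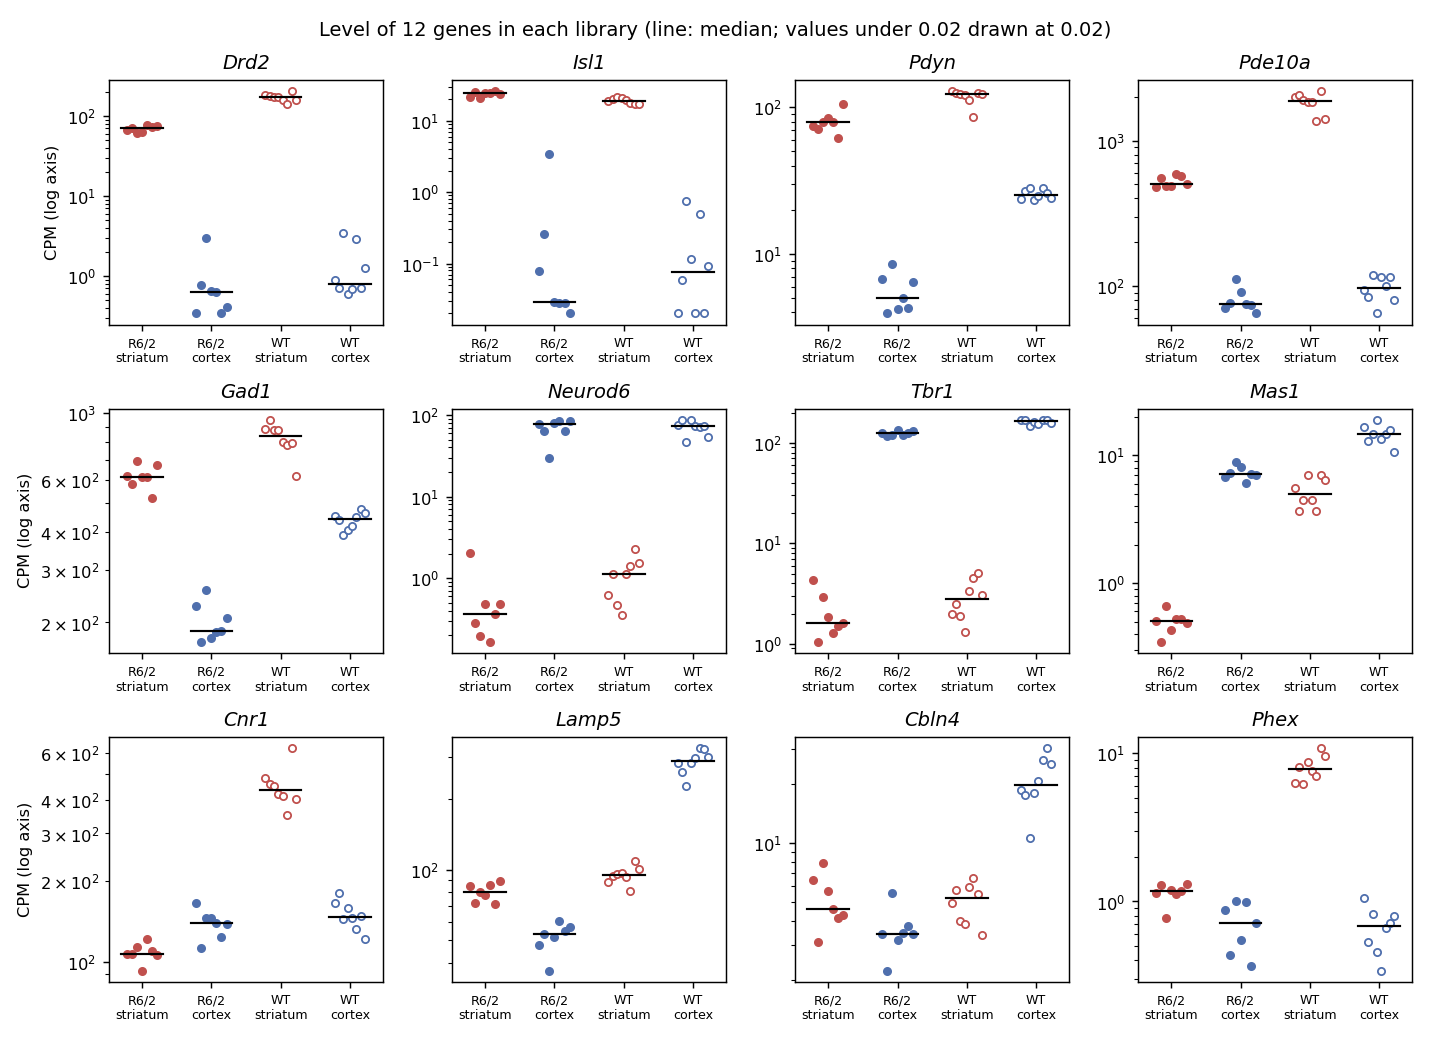
Level in CPM (log axis) of 12 genes in each library of vehicle R6/2 striatum and cortex (filled) and WT striatum and cortex (open), with the median as a line. Drd2 and Tbr1 keep separate regions in both genotypes, Cnr1 and Lamp5 reverse, and Pdyn has its lowest values in vehicle R6/2 cortex, 3.94 to 8.61 CPM.

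Genes were then read by list. Of all genes 30.3% were higher in vehicle R6/2 striatum and 29.4% in cortex, and the interaction moved 7.42% toward striatum and 9.77% toward cortex, so a list near these shares shows nothing particular to it. Among the lists near the first pair were general astrocyte genes, with 5 and 4 of 13, retinoic acid, with 7 and 5 of 17, and the kynurenine pathway, with 3 and 3 of 10. Of 28 general genes of striatal projection neurons, among them the pathway genes Penk, Tac1 and Slc35d3, which are counted again below, 27 were higher in vehicle R6/2 striatum, 25 of them at least 2-fold, and Rgs14 was the exception (log2 -0.22, beside 0.97 in WT). The median log2 difference was 2.56 in vehicle R6/2, against 3.41 in WT and against 0.00809 over all genes in vehicle R6/2. The interaction moved Strip2 alone toward striatum (0.97) and 17 of the 28 toward cortex. Without the animals that stood apart the counts were 3 and 20. Pde10a, the cyclic nucleotide phosphodiesterase of these neurons, had 479, 502 and 589 CPM in vehicle R6/2 striatum, against 65.6, 75.3 and 112 CPM in cortex (log2 2.71 ± 0.11 SE, beside 4.22 ± 0.12 SE in WT). Ppp1r1b, which encodes DARPP-32, had 580, 628 and 666 CPM in striatum, against 19, 27.2 and 75.8 CPM in cortex (log2 4.36, beside 4.15 in WT). In WT it averaged 1830 CPM in striatum and 101 CPM in cortex. The G protein regulator Rgs9 was at 4.41 in vehicle R6/2 and 5.78 in WT, Syndig1l at 4.9 and 6.32, and the actin cross-linker Actn2 at 2.45 and 3.81. Ryr1, a calcium release channel, averaged 9.39 ± 1.74 CPM in striatum and 4.38 ± 1.53 CPM in cortex of vehicle R6/2, against 140 ± 23.7 and 22.9 ± 5 CPM in WT, and stayed 2.19-fold higher in vehicle R6/2 striatum. Scn4b, a sodium channel subunit, averaged 212 ± 21.3 and 22.7 ± 2.81 CPM in vehicle R6/2 striatum and cortex, against 1820 ± 216 and 154 ± 19 CPM in WT, and its log2 difference was 3.22 in vehicle R6/2 and 3.54 in WT.

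For the separate projection pathways, all 7 tested indirect pathway genes were higher in vehicle R6/2 striatum (median log2 5.15, beside 5.32 in WT), and only Upb1 had a called interaction (-2.18). Adora2a, an adenosine receptor, had 80.2, 103 and 130 CPM in striatum, against 1.5, 1.72 and 7.51 CPM in cortex (log2 5.28, beside 6.62 in WT). Its interaction of -1.34 was not called with all animals (adjusted p = 0.0694) and was called without those that stood apart (-1.37, adjusted p = 0.000173). Penk, which encodes the enkephalin precursor, had 317, 343 and 400 CPM in striatum, against 5.95, 7.69 and 38.7 CPM in cortex, the highest in mouse 3 (log2 5.15, beside 5.32 in WT). A kept regional difference is not a kept level. Penk averaged 351 CPM in vehicle R6/2 striatum, against 1450 CPM in WT striatum, and 12 CPM in cortex, against 37.5 CPM. Striatal means were also lower for Drd2 (69.7 CPM, against 172 CPM in WT), Adora2a (99.6, against 346) and Gpr6 (27.3, against 76.3). Means of the other members are not given, and levels were not tested between genotypes. Of 10 direct pathway genes 8 were higher in striatum and 2 in cortex, among them Sfxn1 (-0.16). The list's median was 2.95 in vehicle R6/2 and 2.19 in WT, with 2 interactions toward striatum, Pdyn and Eya1, and 3 toward cortex, Drd1, Chrm4 and Sfxn1. Drd1 had 105, 115 and 123 CPM in striatum, against 8, 9.18 and 21.1 CPM in cortex (log2 3.43 ± 0.17 SE, beside 4.45 ± 0.11 SE in WT). Tac1, which encodes substance P, was at 4.78 in vehicle R6/2 and 4.27 in WT. Of 12 opioid and tachykinin genes 8 were higher in striatum and 3 in cortex, Tac2 (-0.93), Oprl1 (-0.27) and Pnoc (-1.73).

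Cholinergic neurons are a small population of large striatal interneurons. Of their 10 genes 9 were at least 2-fold higher in striatum, with Zic4 (-0.49) higher in cortex, and the median was 4.52 in vehicle R6/2, against 5.53 in WT. Chat, which makes acetylcholine, had 8.44, 9.86 and 11.4 CPM in striatum, against 0.132, 0.277 and 0.814 CPM in cortex (log2 4.92 ± 0.2 SE, beside 6.15 ± 0.14 SE in WT). The 3 called interactions of the list, all toward cortex, were Chat, the choline transporter Slc5a7 (-1.63) and the low-affinity neurotrophin receptor Ngfr (-0.76, adjusted p = 0.0638 without the animals that stood apart). Slc18a3 lies within Chat on the same strand, and the split of reads between them is uncertain.

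Of 25 transcription factors of subpallial lineage 19 were higher in striatum, 18 of them at least 2-fold, and Dlx1 (-0.5), Sp8 (-0.59) and Gsx1 (-1.0) were higher in cortex. In WT 19 were higher in striatum and 3 in cortex as well, and the median was 2.33 in vehicle R6/2, against 2.61 in WT. The interaction moved 2 toward striatum and 4 toward cortex. The striatal factor Bcl11b had 203, 222 and 253 CPM in striatum, against 38.1, 40.8 and 78.3 CPM in cortex (log2 2.32, beside 2.61 in WT), and Foxp1 was at 1.11, beside 1.42. Of 23 pallial factors 19 were higher in cortex, 17 of them at least 2-fold, and Cux1, Foxo1, Nfe2l3 and Etv1 were higher in striatum. In WT 2 were higher in striatum and 19 in cortex, and the median was -2.02 in vehicle R6/2 and -2.56 in WT. The interaction was called for 5 pallial factors toward striatum and 3 toward cortex. Among the first, Cux2 stood at -1.96 in vehicle R6/2 and -2.65 in WT, and Mef2c at -2.2 and -2.56. Mef2c had 133, 163 and 168 CPM in vehicle R6/2 striatum, against 575, 733 and 808 CPM in vehicle R6/2 cortex.

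The wider list of 24 cortical layer genes had no single direction, with 12 higher in striatum and 10 in cortex (median 0.1 in vehicle R6/2, -0.54 in WT). Several of its members are also made by striatal neurons, among them Calb1 (0.85), Pcp4 (1.34) and Syt6 (2.89). On the cortical side stood Nrn1, a neurite growth factor with 2.53, 3.1 and 15 CPM in striatum and 84.5, 98.2 and 154 CPM in cortex (log2 -4.39, and -4.98 without mice 1 and 3), the pentraxin Nptx1 (-4.25), the layer factors Fezf2 (-3.75) and Rorb (-1.64) and the Ras activator Rasgrf2 (-2.11). The interaction moved 7 of the 24 toward striatum and 5 toward cortex.

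Synaptic genes went both ways. Of 26 genes of excitatory transmission 8 were higher in vehicle R6/2 striatum and 14 in cortex, and the interaction moved Camk2a (0.47) toward striatum and 8 toward cortex. The presynaptic glutamate receptor Grm2 had 0.165, 0.566 and 1.86 CPM in striatum, against 14.8, 18.8 and 24.6 CPM in cortex. Of 18 GABA genes 10 were higher in striatum and 7 in cortex, with 6 interactions toward striatum. Gad1, a GABA-synthesising enzyme, had 521, 614 and 692 CPM in vehicle R6/2 striatum, against 172, 187 and 257 CPM in vehicle R6/2 cortex (log2 1.61 ± 0.052 SE), and averaged 824 ± 101 and 439 ± 29.7 CPM in WT striatum and cortex (log2 0.87 ± 0.075 SE, interaction adjusted p = 6.22e-05). The vesicular GABA transporter Slc32a1 was at 2.15 in vehicle R6/2 and 1.72 in WT. Of 16 interneuron genes 6 were higher in striatum and 8 in cortex. Vip had 0.0629, 0.417 and 0.639 CPM in striatum, against 11.6, 16 and 18.7 CPM in cortex (log2 -5.4, beside -5.36 in WT). Sst, the somatostatin gene, was at 0.88 in vehicle R6/2 and -0.06 in WT (interaction 0.92, adjusted p = 2.14e-05).

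Channels and receptors outside these groups were mixed. Of 32 potassium channel genes 12 were higher in striatum and 16 in cortex, led by Kcnab1 (1.97) and by Kcnk9 (-2.56) and Kcnj3 (-2.3). Of 26 genes of calcium channels and stores 12 and 10 were higher, with Ryr3 at 2.04 in vehicle R6/2 and 3.22 in WT, and Cacna1g at -2.67 and -1.97. Of 12 cannabinoid and adenosine genes 3 were higher in striatum and 8 in cortex. The anandamide-degrading enzyme Faah averaged 38.7 CPM in striatum and 100 CPM in cortex of vehicle R6/2, a log2 difference of -1.38 beside -2.17 in WT. Of 11 serotonin receptor genes 5 were higher in striatum, among them Htr1b at 3.26 in both genotypes and Htr1d at 3.93 (4.9 without mice 1 and 3), and 6 in cortex. Of 20 immediate-early genes, which neurons switch on with activity, Npas4 (0.33) was higher in striatum and 10 in cortex, with Fos at -1.26 in vehicle R6/2 and -2.1 in WT. Bdnf, a neurotrophin made in cortex, had 0.192, 0.627 and 1.83 CPM in striatum, against 13.8, 18.1 and 27.7 CPM in cortex (log2 -4.68, beside -4.86 in WT).

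Among glial genes, all 14 myelin genes were higher in vehicle R6/2 striatum (median 0.859, beside 0.996 in WT), with summed levels of 8317 to 8947 CPM in striatum and 3575 to 6656 CPM in cortex, and 5 interactions moved toward cortex. Mag was the one at 2-fold or more, with 315, 343 and 378 CPM in striatum, against 127, 151 and 226 CPM in cortex (log2 1.15). Of 9 precursor genes 7, and of 17 microglial genes 13, were higher in striatum, with small median differences of 0.326 and 0.292. Cd68, a lysosomal protein of phagocytes, was the microglial gene past 2-fold (1.16), and Fcrls (-0.24) was higher in cortex. Of 13 general astrocyte genes 5 were higher in striatum and 4 in cortex, and 4 and 5 without mice 1 and 3.

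The counts of vessel and meningeal genes changed when the animals that stood apart were left out, a step that also leaves fewer mice to test. Of 16 endothelial and pericyte genes Abcc9 (0.13) was higher in vehicle R6/2 striatum and 7 in cortex, all by less than 2-fold, and 7 interactions moved toward cortex. Without the animals that stood apart 5 were higher in cortex and 1 interaction was called. The sizes moved little: the median log2 difference was -0.122 with all animals and -0.098 without them. The median interaction was -0.226 and -0.204. Of 14 meningeal and fibroblast genes 10 were higher in cortex, 8 of them at least 2-fold, among them Slc22a6 (-2.33), Lum (-1.94) and Igfbp2 (-1.75). The summed level ran from 242.7 to 320.9 CPM in striatum and from 230.6 to 1149 CPM in cortex, so cortical libraries differed in it by several fold, and 3 of the 14 genes, below the share of all genes, were called without mice 1 and 3. Striatal libraries held 51.01 to 128.8 CPM of 14 choroid plexus and ependymal genes, against 19.58 to 75.04 CPM in cortical ones. Of 9 tested genes of thalamus, hypothalamus and pallidum 4 were higher in striatum and 3 in cortex, with sums of 106.1 to 239.1 and 146.5 to 178 CPM, and Hcrt, Avp, Oxt, Pmch and Six6 were too low to be tested. Of 8 genes of septum and olfactory bulb 2 were higher in striatum and 5 in cortex, of 9 hippocampal genes 6 and 3, and of 5 blood genes Hbb-bs alone (-0.17) in cortex. The part of these tissues in other differences was not tested.

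Among metabolic genes, 0 of 21 of cholesterol synthesis were higher in vehicle R6/2 striatum and 19 in cortex (median -0.455, beside -0.483 in WT). Hmgcs1, an early enzyme of the pathway, had 103, 117 and 132 CPM in striatum, against 201, 231 and 257 CPM in cortex (log2 -1.0 ± 0.031 SE, beside -0.76 ± 0.046 SE in WT), with no overlap. In this list 2 interactions moved toward striatum and 8 toward cortex, and 1 and 5 without the animals that stood apart. Of 23 proteasome subunits Psmb6 (0.11) was higher in striatum and 14 in cortex, the largest by -0.28 for Psmc3, and no interaction was called. Of 23 respiratory chain subunits 2 were higher in each region, with a median of 0.00609. Of 16 clock genes 8 were higher in striatum and 3 in cortex, with Dbp at 1.07 in both genotypes. Of 15 interferon response genes 3 were higher in striatum, among them Ifi27 (0.38) and Lgals3bp (0.15), and Stat2 (-0.17) was higher in cortex. Lgals3bp was at -0.07 within run tag L5. Ifi27 was at -0.13 in WT, and its interaction was called (0.49, adjusted p = 0.000273). Of 10 tested kynurenine pathway genes 3 were higher in striatum, Ido1, Kyat1 and Kyat3, and 3 in cortex, Tdo2, Slc7a5 and Slc3a2. These counts lie near the shares of all genes. Kmo, the target of the compound, had medians of 0.0836 CPM in striatum and 0.145 CPM in cortex and was not tested. For retinoic acid the counts were 7 and 5 of 17, with Rarb at 3.29 in vehicle R6/2 and 3.85 in WT. For neurotrophins they were 6 and 6 of 13, and for dopamine and cyclic AMP signalling 16 and 6 of 22. For regionally patterned astrocyte genes they were 6 and 1 of 13.

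**Figure D5:**
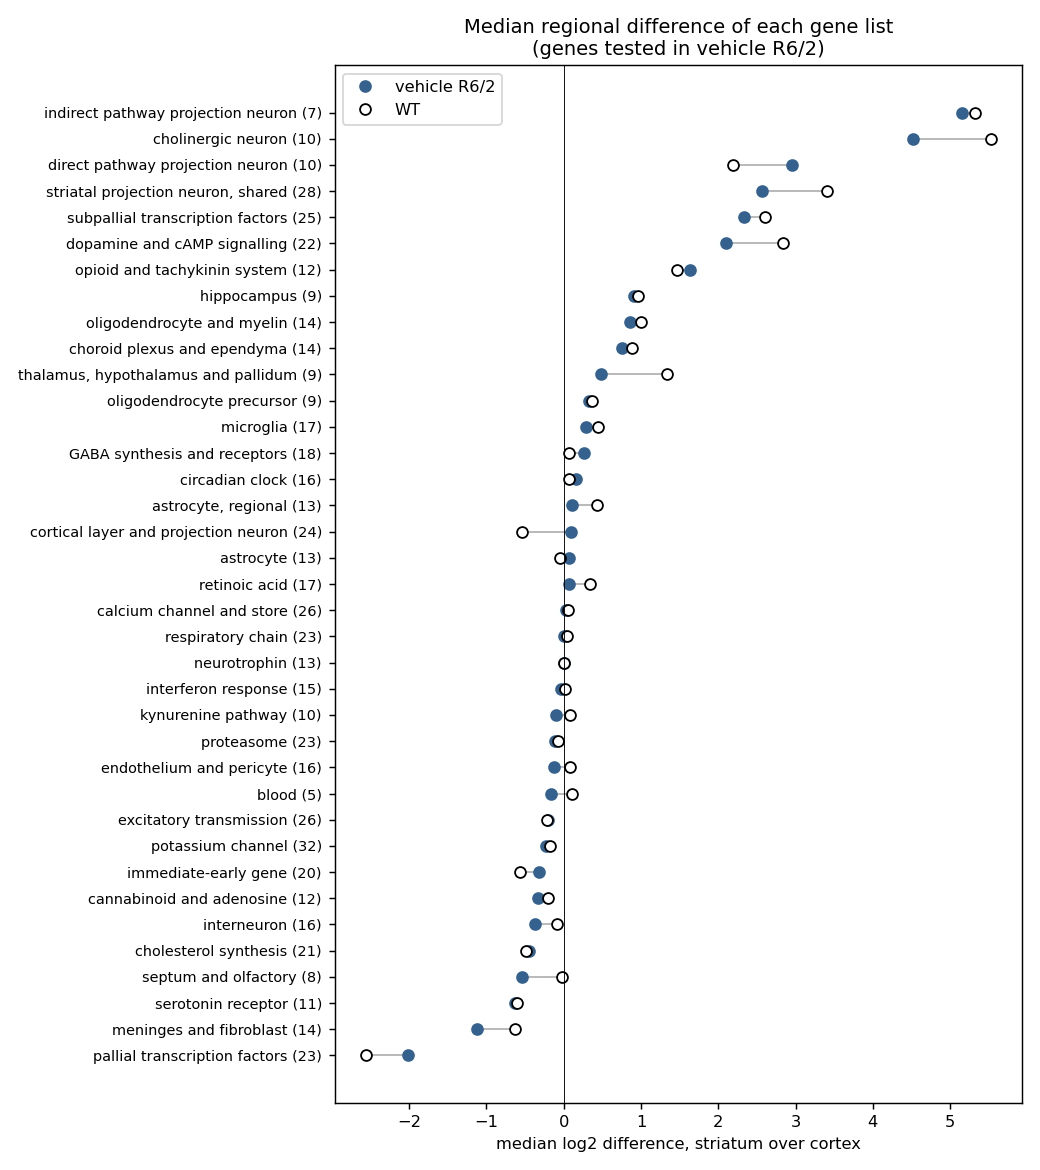
Median log2 difference, striatum over cortex, of each gene list in vehicle R6/2 (filled) and in WT (open), with the number of genes tested in brackets. Striatal neuron lists lie to the right in both genotypes, with the shared projection neuron list at 2.56 in vehicle R6/2 and 3.41 in WT, and pallial factors lie to the left at -2.02 and -2.56.

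The treated R6/2 mice gave an independent set of diseased animals. There 800 genes were at least 2-fold higher in striatum (4.71%) and 836 in cortex (4.92%) of 16988 tested. The 1361 genes that were regional in the same direction in both R6/2 groups were 82.1% of the vehicle and 83.2% of the treated list, and 1550 of 1608 vehicle regional genes were called in the same direction. Of the reversed genes, Cnr1 was at -0.45 in treated and -0.36 in vehicle R6/2, Lamp5 at 0.65 and 0.64, and Phf21b at 0.5 and 0.46. Others stood further apart, with Cbln4 at -0.02 in treated and 0.51 in vehicle R6/2, Mei1 at 0.13 and 0.45, and Lhx9 at 0.61 and -1.41. Pdyn was at 3.45 in treated and 3.84 in vehicle R6/2. The difference between treated and vehicle animals was not tested. Within vehicle R6/2, the regional difference was not called to depend on sex for any gene by edgeR, with 1442 genes at an unadjusted p under 0.05, 51 genes called by DESeq2 and 0 by limma on FPKM. Run tag L5 held 1 striatal library, that of treated mouse 3 with cortical markers at 3.18 times its group's median, and 5 cortical libraries, 4 of them from treated mice. Within it, 1639 of the 1658 regional genes (98.9%) differed in the same direction, with no test. These genes were picked for large differences, and the vehicle cortical library of this tag is among those that picked them. No share over all genes is given beside it, so the 98.9% cannot separate tag from region. Sizes moved more: Slc17a7 was at -4.57 and Neurod6 at -4.33 within the tag, against -6.73 and -6.93 over all mice.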

How the data were processed

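RNA from right striatum and cortex of 23 mice was sequenced as 46 libraries. The authors deposited estimated counts per gene (33.8% of the values above 0 were not whole), which were rounded here, and FPKM values. CASAVA 1.8.2 and the mm10 build are named, per the submitters' processing notes, while no source used here gives the aligner, quantifier or strand setting. Counts were tested in R 4.3.3 with edgeR 4.0.16 (filterByExpr, TMM scaling, robust quasi-likelihood fit, animal as block), with Benjamini-Hochberg adjustment over all genes tested. Every adjusted p in the text comes from this test unless another is named. DESeq2 1.42.0, and limma 3.58.1 on log2 of the deposited FPKM plus 0.1, were alternatives. The scripts were tested on simulated data, with 100 genes changed by 1 and 100 by 0.5 on the log2 scale. In the vehicle R6/2 comparison 99% and 79% of them were recovered. There 11.4% of the called genes were false, above the share that the limit on adjusted p aims at. In the interaction 94% and 73% were recovered, and 4.57% of the called genes were false. The labels' animal codes pair striatum and cortex. Deviations of the 2 libraries of a mouse from their group means correlated at 0.504 to 0.786 over 11992 genes, highest with the own partner in 7 of 7 mice. Genes were named by rule: the 10 largest differences each way at 5 CPM or more, up to 4 per list, the 8 largest called interactions each way among genes regional in either genotype at 5 CPM or more in the highest group, and 30 set genes. Some genes that these rules name are not reported here. Further list members are named where a count is small or as examples chosen after their values were seen. The members and the 37 lists were chosen with earlier results of these data known. Leaving out animals with a library that stood apart, and choosing genes on the mean of both genotypes, were alternatives added after the values were seen.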

Additional observations from a re-analysis of the deposited data

Results flagged for a closer look

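Within vehicle R6/2, the log2 difference between the striatum and cortex of 1 mouse lay apart from the other 6 for 35 of 160 genes checked. Mouse 3 was the one apart for most of the 35. By chance about 1 in 20 holds for a single gene. The genes share the same libraries and many were chosen for large differences, so that rate is no measure for this count. Among genes with a large excess in striatum, mouse 3 had Serpina9 at 4.74, Sh3rf2 at 3.91, Drd2 at 4.32, Six3 at 3.33, Isl1 at 2.58, Lhx8 at 3.36, Penk at 3.03, Tac1 at 3.16, Adora2a at 3.41 and Drd1 at 2.45. For Drd2 the other 6 mice ran from 6.45 to 7.51, and for Penk from 5.24 to 5.84. Among further genes higher in striatum it had Syndig1l at 4.16, Rgs9 at 3.05, Tacr1 at 1.28, Nkx2-1 at 2.85, Cacna1h at 0.85, Nt5e at 0.54, Htr1d at 1.28, Crabp1 at 2.47, Rxrg at 3.06, Gdnf at 3.14, Wfs1 at 0.81, Cry1 at 0.13, Ankrd63 at 2.26, Bcl11b at 1.37 and Chat at 3.61. It also had Kcnj3 at -1.74, Napepld at -0.67, Ramp3 at 0.79, Cdhr1 at -1.89 and Alox12b at -0.14, and for Ramp3 the others ran from -1.78 to -0.87. Mouse 1 was apart with Neurod2 at -4.12, Slc30a3 at -3.55, Dbp at 1.51 and Emx1 at -3.78, and mouse 5 with Cdh5, an endothelial cadherin, at -0.45. The cortical library of mouse 3 held striatal markers at 13.8 times the group's median and the striatal library of mouse 1 held cortical markers at 6.57 times, and their part in these values was not tested further. Drd2, Six3, Isl1, Neurod2, Slc30a3 and Emx1 are among those markers, so their place here repeats that measure.

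For 16 genes the regional difference itself differed between vehicle R6/2 and WT mice by the interaction test. In log2 units, the difference moved toward striatum in vehicle R6/2 for Adam33 at 3.47, Ankrd63 at 2.74, Alox12b at 2.63, Cbln4 at 2.55, Myl4 at 2.43, Mylk3 at 2.43, Gm13306 at 2.38 and BC030499 at 2.32. It moved toward cortex for Clec12a at -2.16, Gm9754 at -2.21, Cplx3 at -2.22, Lrrc10b at -2.27, Mas1 at -2.37, Clspn at -2.69, Phex at -2.86 and Abhd11os at -3.21. They are the 8 largest called interactions each way among genes that were regional in vehicle R6/2 or WT and averaged at least 5 CPM in the highest of the 4 groups. Larger ones of less abundant genes are not listed.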

How the results depend on the processing

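Without the replicate block, 8627 genes were called in vehicle R6/2, 1650 of them regional, and the interaction called 2246, each within 1.5 times of the fit with the animal as block. On log2 FPKM with a pseudocount of 1 the regional genes numbered 710 in vehicle R6/2, 663 in treated R6/2 and 1050 in WT, with 591 WT regional genes retained. At 1.5-fold they numbered 3376, 3199 and 4283 with 2681 retained, and at 4-fold 521, 440 and 739 with 415 retained. A test against 1.2-fold called 4820 genes in vehicle R6/2 and 986 in the interaction, which called 1483 in females alone and 1033 in males alone. Other alternatives kept these counts within 1.5 times. The dependence on sex, with 0 genes called, had 51 by DESeq2, 10 without the count filter and 0 to 9 when 1 mouse was left out, 9 without mouse 1 and 7 without mouse 3. Within run tag L5, 58 of the named genes moved by more than the spread between mice, and directions turned for Lgals3bp (-0.07), Ndufs7 (-0.02), Cbln4 (-0.02) and Gm13306 (0.36). Apart from the steps that change the threshold or the number of animals, the cause was not tested. Without the animals that stood apart, the interaction was also called for Slc17a7 (-1.74), Tac1 (0.56), Ppp1r1b (0.37) and Scn4b (-0.48). Slc17a7 is one of the markers by which those animals were chosen. Depth limits genes near 0 in 1 region, whose fold is imprecise, and the 174 WT regional genes too low to be tested in vehicle R6/2.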
